A study of Homo sapiens with 12 samples.

Results

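The genes described here handle calcium where the endoplasmic reticulum (ER) meets mitochondria and the plasma membrane. They were taken from the count table by name, with no cutoff on a measured value, but the list was chosen with earlier results of these data known. All 29 of them were among the 28747 gene identifiers of the count table: ITPR1, ITPR2, ITPR3, RYR1 and RYR2 (release channels), ATP2A2, ATP2A3, ATP2B1 and ATP2B4 (pumps), STIM1, STIM2, ORAI1, ORAI2 and ORAI3 (store-operated entry), MCU, MCUB, MICU2 and SMDT1 (mitochondrial uniporter), VDAC1, VDAC2 and VDAC3 (outer mitochondrial membrane), LETM1, SLC8B1 and TMCO1 (exchange and leak), CALM2 and CALM3 (calmodulin), and VAPA, VAPB and RMDN3 (tethers). The data are 12 bulk RNA-seq libraries of DU145, an established human prostate cancer cell line, with 3 libraries in each of 4 groups. Control cells (shCtrl) and cells with a lentiviral short hairpin RNA against 1 target gene (shSigma) were kept in adherent culture or as tumor spheres, which form from single cells in serum-free medium without attachment and enrich for stem-like cells. The design asks how each gene differed between the hairpin arms in either culture, whether the difference depended on the culture, and how spheres differed from adherent cells. Each arm is a stable line under puromycin selection that carries a hairpin, and the labels do not name the hairpin sequenced, so an effect of the target's depletion cannot be told apart from another effect of that line or hairpin. In these bulk samples, fewer cells with a transcript and less transcript per cell cannot be told apart either.

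Calcium leaves the ER through IP3 receptors (ITPR genes) and ryanodine receptors (RYR genes), and SERCA pumps (ATP2A genes) return it. At contacts between ER and mitochondria, IP3 receptors face the VDAC channels of the outer mitochondrial membrane, and the MCU uniporter of the inner membrane takes calcium up into the matrix. STIM proteins sense an emptied ER store and open ORAI channels of the plasma membrane, while the plasma membrane pumps (ATP2B genes) export calcium from the cell.

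The libraries held 16472722 to 26957777 counts, of which 4.94% to 8.51% came from genes of mitochondrial DNA. Levels are given as CPM, the counts scaled to the library total after TMM normalization, and differences as log2 fold changes with their standard error (SE) from edgeR's quasi-likelihood test. A gene was called at a Benjamini-Hochberg adjusted p under 0.05 over all genes tested in a comparison. Every pair of replicate libraries differed by more than counting noise, with a chi-square per gene of 2.63 to 41.5. The adherent shSigma library 3 stood apart from libraries 1 and 2 of its group (chi-square per gene 23.1 and 31.0, against 2.63 between those 2), and the adherent shCtrl libraries 1 and 3 differed most (41.5). The keratins KRT8, KRT18 and KRT19 were at 63.7 CPM or more in every library, and the leukocyte gene PTPRC had at most 4 counts. These and the adhesion genes CDH1 and EPCAM, 5 epithelial markers in all, were detected in every library, and their summed level was 2284 to 2348 CPM in shCtrl spheres, 896 to 954 CPM in shSigma spheres, 878 to 964 CPM in adherent shCtrl and 1140 to 1452 CPM in adherent shSigma cells. The shCtrl spheres stood apart in 2 of these markers, with CDH1 at 678 to 770 CPM against 10.7 to 30.1 CPM in the 3 other groups. EPCAM was at 578 to 662 CPM in shCtrl spheres and 213 to 264 CPM in adherent shCtrl cells. It was at 60.7 to 63.6 CPM in shSigma spheres and 29.6 to 32.4 CPM in adherent shSigma cells. The keratins did not set the shCtrl spheres apart, and without CDH1 and EPCAM the sum was lower there than in adherent shSigma cells.

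Of the 29 genes, 26 passed the filter on low counts and were tested in every comparison, and RYR2, ORAI1 and SMDT1 were not. In adherent cells 9 of the 26 (34.6%) were higher and 4 (15.4%) were lower in shSigma than in shCtrl, where 22.3% of all 13764 genes tested were higher and 27.7% were lower. In tumor spheres 4 of the 26 (15.4%) were higher and 8 (30.8%) were lower, against 30.2% and 30.9% of all 13774 genes tested. These shares differ from those of all genes by a few genes in either direction, and the median log2 difference of the 26 was 0.090 (all genes -0.014) in adherent cells and 0.0028 (all genes 0.0015) in spheres. By role, all 4 tested genes of store-operated entry were higher in adherent shSigma cells and 2 of them were in spheres, whereas 2 of 3 VDAC genes, both calmodulin genes and 2 of 3 tether genes were lower in shSigma spheres. In adherent shSigma cells 1 of 3 VDAC genes was lower, 0 of 2 calmodulin genes were called and 2 of 3 tether genes were higher. Differences over 1 on the log2 scale were held by RYR1, ATP2B4 and ORAI2 in adherent cells (3 of 26, against 13.7% of all genes) and by these and ITPR2 in spheres (4 of 26, against 13.1%). In the heat map by library the largest contrasts lie in RYR1, ITPR2, ATP2A3, ATP2B4 and ORAI2.

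**Figure D1:**
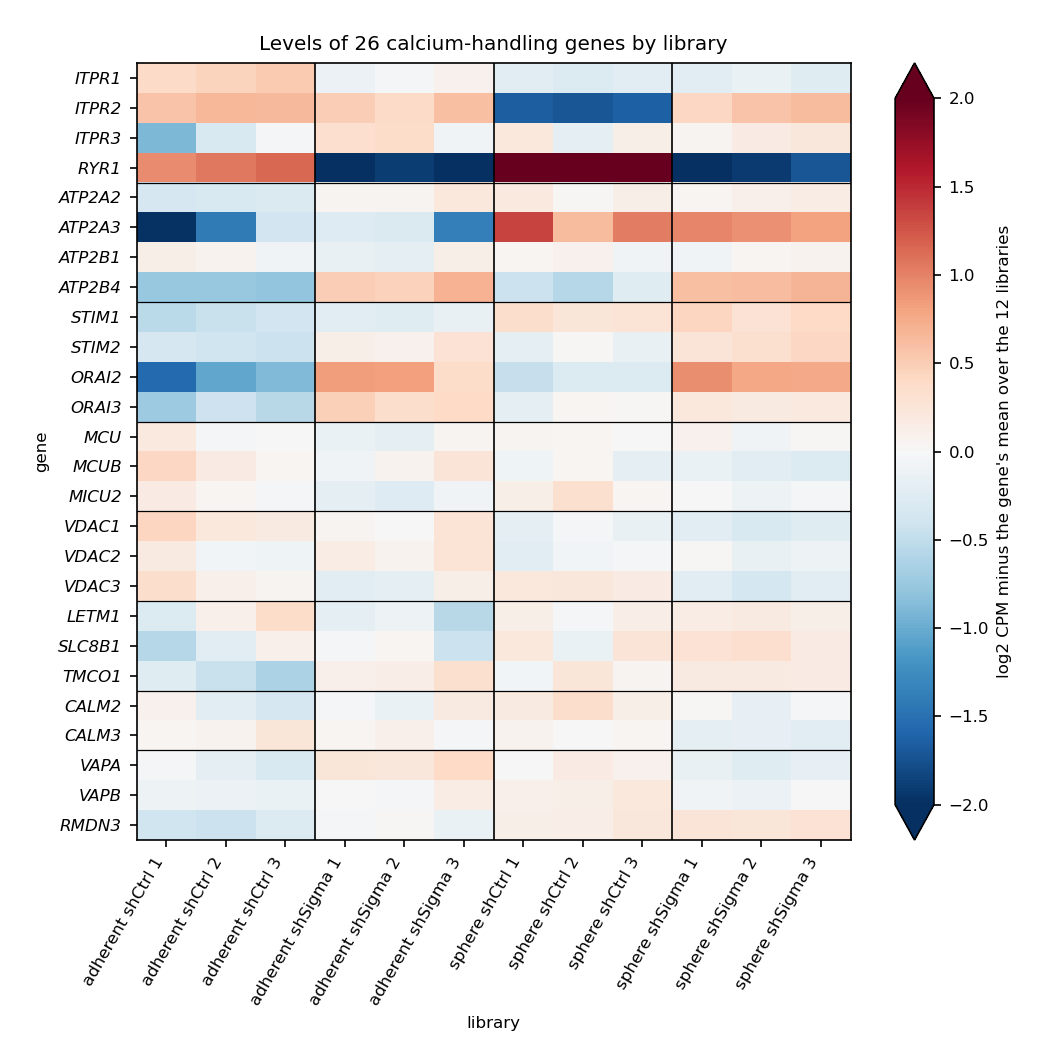
Colour gives log2 CPM minus the gene's own mean over the 12 libraries (colour scale from -2 to 2, values beyond it at the end colour) for the 26 tested genes in rows, grouped by role, and the libraries in columns. RYR1 is high in the 6 shCtrl libraries and low in the 6 shSigma libraries, and ITPR2 is low in the 3 shCtrl sphere libraries alone.

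Direction was shared between the cultures for 6 genes: RYR1, MICU2 and VDAC3 were lower and ATP2B4, STIM2 and ORAI2 were higher in shSigma in both. Of all 13391 genes tested in both cultures, 31.9% were called in the same direction. VAPA was higher in adherent and lower in sphere shSigma cells (opposite directions in 4.12% of all genes), and 8 genes were called in neither culture (24.9% of all genes). The adherent and the sphere comparison have no library in common, but both set the same hairpin arms against each other. A difference fixed in either stable line would appear in both cultures, so a shared direction is not independent evidence.

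**Figure D2:**
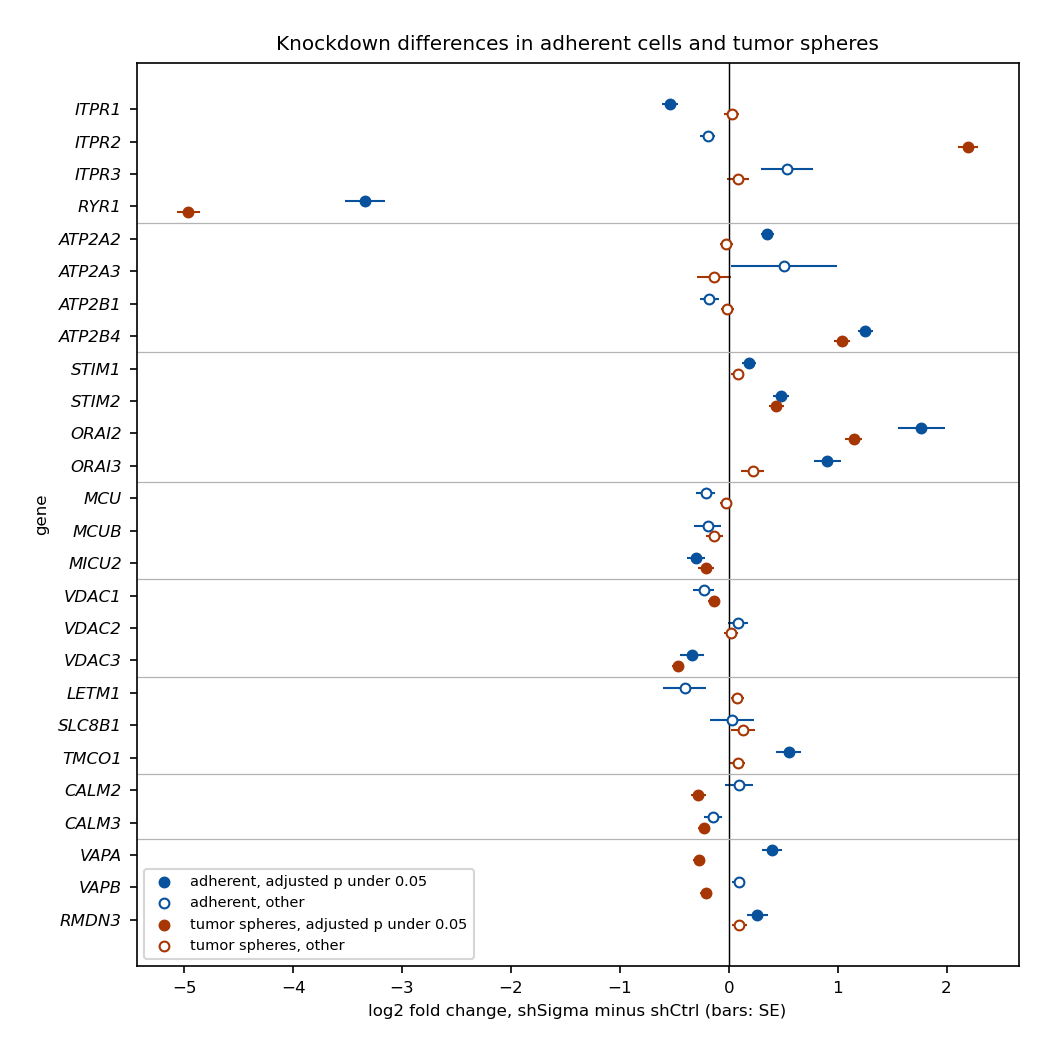
Points give the log2 fold change of shSigma against shCtrl (horizontal axis, bars are SE) for the 26 tested genes in adherent cells (blue) and tumor spheres (orange-brown), filled where the adjusted p was under 0.05. RYR1 lies far to the left in both cultures, and ITPR2 lies near 0 in adherent cells and at 2.20 in spheres.

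The start regions of the 3 genes whose knockdown difference was over 1 in both cultures are shown here. They are the 250 bases before the transcription start, from RefSeq on GRCh38.p14, all on the plus strand, and capitals mark the letters of 3 motifs searched on either strand. The GC box, a site of Sp1 and its relatives, was searched as GGGCGG. The palindromic E-box was searched as CACGTG. The box bound by the factor NF-Y was searched by the letters of its name, CCAAT.
RYR1, chr19:38433441-38433690: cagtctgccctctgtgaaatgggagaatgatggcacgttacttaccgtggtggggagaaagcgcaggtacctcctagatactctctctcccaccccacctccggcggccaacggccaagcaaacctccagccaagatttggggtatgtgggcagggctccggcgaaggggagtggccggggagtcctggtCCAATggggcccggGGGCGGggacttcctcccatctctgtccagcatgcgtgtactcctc
ATP2B4, chr1:203626582-203626831: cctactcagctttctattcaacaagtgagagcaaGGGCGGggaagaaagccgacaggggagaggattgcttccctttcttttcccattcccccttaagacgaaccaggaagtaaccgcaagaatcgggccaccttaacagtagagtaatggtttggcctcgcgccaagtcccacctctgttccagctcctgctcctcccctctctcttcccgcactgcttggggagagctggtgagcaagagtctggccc
ORAI2, chr7:102433325-102433574: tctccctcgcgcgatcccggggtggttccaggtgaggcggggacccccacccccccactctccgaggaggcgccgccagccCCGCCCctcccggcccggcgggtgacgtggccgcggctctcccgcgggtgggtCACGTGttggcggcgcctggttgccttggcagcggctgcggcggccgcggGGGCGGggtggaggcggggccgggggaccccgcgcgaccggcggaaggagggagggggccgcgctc
A GC box was found once in the RYR1 window, once in that of ATP2B4 and at 2 places in that of ORAI2, which also held the single E-box, and RYR1 held the single CCAAT box. A TATA box (TATAAA) was in none of the 3. Of 27303 promoters of this length in the same table, 42.3% held a GC box, 33.0% a CCAAT box, 6.49% an E-box and 11.1% a TATA box. Among the 23 calcium genes with an entry there were 18 with a GC box, 5 with a CCAAT box, 2 with an E-box and 0 with a TATA box, and the median GC content of their windows was 68.4%, against 58% over all promoters. These matches describe letters only. ITPR2 has no entry in this table.

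RYR1, a ryanodine receptor best known as the release channel of skeletal muscle, showed the largest difference of the set in both cultures. The gene lies on chromosome 19 at 38433691 to 38595273 (plus strand, GRCh38). In adherent cells it was at 10.4, 11.2 and 11.9 CPM in the shCtrl libraries and at 0.90, 1.43 and 1.11 CPM in the shSigma libraries. In spheres it was at 44.95, 46.8 and 44.9 CPM in shCtrl and at 1.31, 1.43 and 1.64 CPM in shSigma. The groups did not overlap in either culture, and the shSigma values rest on 19 to 31 counts per library. RYR1 fell by 3.34 ± 0.18 on the log2 scale in adherent shSigma cells (edgeR adjusted p = 1.4e-05), a 10.1-fold lower level, and fell by 4.96 ± 0.11 in shSigma spheres (edgeR adjusted p = 1.9e-11), a 31.2-fold lower level. The difference was larger in spheres, with an interaction of -1.68 ± 0.21 (edgeR adjusted p = 4.7e-05). Spheres of shCtrl cells held 4.08 times as much RYR1 as adherent shCtrl cells (log2 2.03, edgeR adjusted p = 1.6e-06), while the shSigma groups of both cultures overlapped (log2 0.37, edgeR adjusted p = 0.23). RYR2, the cardiac paralog, had 1 to 8 counts per library (0.05 to 0.41 CPM) and was not tested.

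ITPR2, an IP3 receptor, differed between the hairpin arms in spheres. It lies on the minus strand of chromosome 12 at 26335352 to 26833194. In adherent cells its levels were 37.9, 40.2 and 39.7 CPM in shCtrl and 35.8, 33.3 and 38.5 CPM in shSigma, and these overlapped. In spheres they were 8.14, 7.78 and 8.21 CPM in shCtrl and 33.9, 37.9 and 39.5 CPM in shSigma. The control spheres thus stood apart from the 3 other groups, which lay between 33.3 and 40.2 CPM. The same 3 libraries stood apart in CDH1 and EPCAM, though not in the keratins, and the part of that in the ITPR2 and RYR1 values was not tested. ITPR2 was higher in shSigma spheres by 2.20 ± 0.09 on the log2 scale (edgeR adjusted p = 3.4e-09), and in adherent cells the difference was -0.19 ± 0.07 (edgeR adjusted p = 0.056). The interaction was 2.34 ± 0.12 (edgeR adjusted p = 1.4e-08). From adherent cells to spheres, ITPR2 fell by 2.29 ± 0.08 in shCtrl (edgeR adjusted p = 7.5e-07) and differed by 0.07 ± 0.08 in shSigma (edgeR adjusted p = 0.47).

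ITPR1, the IP3 receptor best known from neurons, was at 50.02, 52.6 and 55.4 CPM in adherent shCtrl and 35.5, 37.3 and 40.99 CPM in adherent shSigma cells, without overlap. In spheres the levels were 33.2, 31.9 and 33.3 CPM in shCtrl and 32.8, 35.2 and 32.5 CPM in shSigma, and they overlapped. ITPR1 fell by 0.54 ± 0.07 in adherent shSigma cells (edgeR adjusted p = 0.00061), with an interaction of 0.50 ± 0.11 (edgeR adjusted p = 0.0027). The median log2 difference of its 40 nearest tested genes on chromosome 3 was -0.56 in the same comparison and -0.49 in spheres, so that ITPR1 moved like its neighbours in adherent cells and unlike them in spheres. ITPR3, which shares exon sequence with the adjacent gene UQCC2 on the opposite strand, was at 125 to 228 CPM in adherent shCtrl and 220.5 to 300.3 CPM in adherent shSigma libraries, a difference of 0.54 ± 0.24 that did not pass (edgeR adjusted p = 0.11), and it differed by 0.09 ± 0.10 in spheres (edgeR adjusted p = 0.47).

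**Figure D3:**
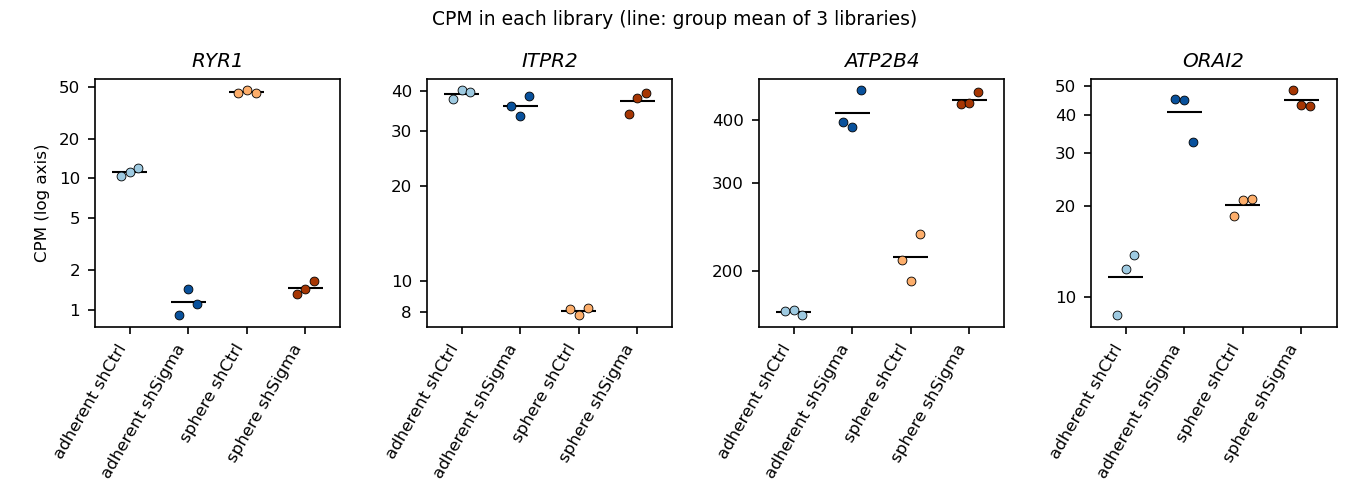
Points give the CPM (log axis, own scale in each panel) of RYR1, ITPR2, ATP2B4 and ORAI2 in the 3 libraries of each group and lines give the group mean. RYR1 lies below 2 CPM in the shSigma libraries of both cultures, ITPR2 is at 7.78 to 8.21 CPM in shCtrl spheres alone, and ATP2B4 and ORAI2 are higher in shSigma than in shCtrl in both cultures.

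ATP2B4, which encodes the plasma membrane calcium pump PMCA4, had the largest knockdown difference of the 4 pumps in both cultures. It lies on chromosome 1 at 203626832 to 203744081 (plus strand). Adherent cells held 166, 168 and 163 CPM in shCtrl and 397, 388 and 459 CPM in shSigma, and spheres held 211, 192 and 238 CPM and 431, 432 and 455 CPM. Every shSigma library lay above every shCtrl library. The gene rose by 1.25 ± 0.07 in adherent cells (edgeR adjusted p = 1.4e-05, 2.39-fold) and by 1.04 ± 0.07 in spheres (edgeR adjusted p = 3.7e-07, 2.05-fold), and the difference between these was not called (interaction -0.28 ± 0.12, edgeR adjusted p = 0.092). Its neighbours did not share this difference (median log2 -0.01 and 0.04 over the 40 nearest genes). ATP2B1, the paralog PMCA1, overlaps its antisense gene ATP2B1-AS1 and differed by -0.18 ± 0.09 in adherent cells (edgeR adjusted p = 0.14) and by -0.01 ± 0.06 in spheres (edgeR adjusted p = 0.87).

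ATP2A2, the ubiquitous SERCA2 pump that refills the ER, was at 662, 680.3 and 688 CPM in adherent shCtrl and 870.1, 869 and 973 CPM in adherent shSigma cells, and at 962, 855 and 906 CPM in sphere shCtrl and 861, 896 and 931 CPM in sphere shSigma cells. The adherent shCtrl libraries were thus the low group. ATP2A2 rose by 0.35 ± 0.06 in adherent shSigma cells (edgeR adjusted p = 0.0023), differed by -0.02 ± 0.06 in spheres (edgeR adjusted p = 0.77), and had an interaction of -0.44 ± 0.10 (edgeR adjusted p = 0.0041). ATP2A3, the SERCA3 pump, was at 2.88, 4.23 and 8.68 CPM in adherent shCtrl and 9.42, 9.27 and 4.39 CPM in adherent shSigma cells, and at 28.7, 17.5 and 22.9 CPM and 22.2, 21.3 and 19.7 CPM in the same arms of spheres. It was higher in spheres in both arms and not called between the hairpin arms (0.50 ± 0.49 in adherent cells, edgeR adjusted p = 0.43). The adherent shCtrl library 1 and the adherent shSigma library 3 were the lowest of their groups for ATP2A3, ITPR3, LETM1, SLC8B1 and ORAI2, and the part of these libraries in the spread of those genes was not tested.

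All 4 tested genes of store-operated entry were higher in adherent shSigma cells, with the smallest difference in STIM1. STIM2, an ER calcium sensor that responds to small losses of the store, was at 48.2, 46.1 and 45.03 CPM in adherent shCtrl and 65.6, 64.2 and 73.97 CPM in adherent shSigma cells. In spheres it was at 52.97, 61.6 and 54.96 CPM in shCtrl and 72.96, 76.2 and 81.02 CPM in shSigma. The groups did not overlap in either culture, and STIM2 rose by 0.48 ± 0.07 (edgeR adjusted p = 0.0012) in adherent cells and by 0.44 ± 0.07 (edgeR adjusted p = 0.00020) in spheres. STIM1, the main sensor, rose by 0.19 ± 0.06 in adherent shSigma cells (edgeR adjusted p = 0.036), and the call was lost in 9 of 13 alternatives, subtraction of its 40 nearest genes among them. In spheres it differed by 0.08 ± 0.06 (edgeR adjusted p = 0.23). STIM1 overlaps exons of the antisense gene STIM1-AS1.

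ORAI2, a channel subunit of the plasma membrane, was at 8.68, 12.3 and 13.8 CPM in adherent shCtrl and 45.4, 44.9 and 32.7 CPM in adherent shSigma cells, and at 18.6, 20.97 and 21.1 CPM in sphere shCtrl and 48.4, 43.3 and 43.1 CPM in sphere shSigma cells. The shSigma libraries lay above the shCtrl libraries in both cultures. ORAI2 rose by 1.77 ± 0.21 in adherent cells (edgeR adjusted p = 0.00070) and by 1.15 ± 0.08 in spheres (edgeR adjusted p = 2.7e-07). Its 40 nearest tested genes on chromosome 7 also rose, by a median of 0.66 and 0.69, and ORAI2 lay 1.11 and 0.46 above them. The exons of ORAI2 overlap those of ALKBH4 on the other strand, and the sources used here do not state whether strand was used in counting. The interaction of -0.67 ± 0.23 (edgeR adjusted p = 0.042) kept its call in 7 of 18 alternatives.

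ORAI3, a channel subunit found in mammals, was at 5.68, 7.02 and 6.35 CPM in adherent shCtrl and 13.04, 11.9 and 12.3 CPM in adherent shSigma cells. In spheres it was at 8.25, 9.66 and 9.52 CPM in shCtrl and 10.8, 10.5 and 10.7 CPM in shSigma. The arms did not overlap in either culture, and the gap was smaller in spheres. ORAI3 rose by 0.91 ± 0.12 in adherent cells (edgeR adjusted p = 0.00067) and differed by 0.22 ± 0.10 in spheres (edgeR adjusted p = 0.085), with an interaction of -0.74 ± 0.15 (edgeR adjusted p = 0.0022). ORAI1, the pore subunit of the classical channel, was listed at 0 in 10 libraries and at 1 count in 2. Genes that nearly every cell uses can be low in this table, such as the ER chaperone gene CANX with 22 to 86 counts per library, so these zeros are given as listed. A count of 0 allows up to 3 counts, or 0.115 to 0.176 CPM, for counting error alone.

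The uniporter genes moved little. MICU2, a gatekeeper subunit of the uniporter, was at 65.6, 59.96 and 57.6 CPM in adherent shCtrl and 51.2, 48.7 and 55.9 CPM in adherent shSigma cells. In spheres it was at 63.2, 72.9 and 59.8 CPM in shCtrl and 58.4, 54.5 and 56.8 CPM in shSigma. All shSigma libraries lay below the shCtrl libraries of their culture, and MICU2 fell by 0.30 ± 0.08 (edgeR adjusted p = 0.020) in adherent cells and fell by 0.21 ± 0.07 (edgeR adjusted p = 0.029) in spheres, with calls kept in 7 of 13 and 8 of 13 alternatives. MCU, the pore, was at 65.3 to 85.8 CPM over the 12 libraries and differed by -0.21 ± 0.09 (edgeR adjusted p = 0.088) and -0.02 ± 0.06 (edgeR adjusted p = 0.74). MCUB, its paralog that limits uptake, shares exon sequence with CASP6 and differed by -0.19 ± 0.13 (edgeR adjusted p = 0.24) and -0.13 ± 0.08 (edgeR adjusted p = 0.18). SMDT1, which encodes the EMRE subunit, was listed at 0 in 11 libraries and at 1 count in 1, and was not tested.

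Among the VDAC channels, VDAC3 was lower in shSigma in both cultures. It was at 198, 167 and 161 CPM in adherent shCtrl and 134, 135 and 168 CPM in adherent shSigma cells, which overlapped. In spheres it was at 179.7, 182 and 174 CPM in shCtrl and 133, 122 and 133 CPM in shSigma, and these groups were apart. VDAC3 fell by 0.34 ± 0.11 in adherent cells (edgeR adjusted p = 0.040), a call kept in 5 of 13 alternatives, and fell by 0.47 ± 0.05 in spheres (edgeR adjusted p = 1.1e-05), a call kept in all 13. VDAC1, the most abundant of the 3 per kilobase, fell by 0.14 ± 0.05 in shSigma spheres (edgeR adjusted p = 0.042), where its nearest genes on chromosome 5 had a median of -0.21, and the call was kept in 4 of 13 alternatives. VDAC2 differed by 0.09 ± 0.09 (edgeR adjusted p = 0.47) and 0.02 ± 0.06 (edgeR adjusted p = 0.82). VDAC and calmodulin genes have many processed pseudogenes, and how reads with several alignments were counted is not given in the sources used here.

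TMCO1, an ER channel that lets calcium out of overfilled stores, was at 85.6, 73.95 and 65.6 CPM in adherent shCtrl and 108, 111 and 127 CPM in adherent shSigma cells. In spheres it was at 97.8, 119.9 and 105 CPM in shCtrl and 115, 115 and 113 CPM in shSigma, with overlap. TMCO1 rose by 0.55 ± 0.11 in adherent shSigma cells (edgeR adjusted p = 0.0053), and the 40 nearest genes on chromosome 1 rose by a median of 0.46. In spheres TMCO1 differed by 0.08 ± 0.07 (edgeR adjusted p = 0.31) while those neighbours had a median of 0.67, and it lay -0.58 from them. The interaction was -0.53 ± 0.14 (edgeR adjusted p = 0.012), and its exons overlap those of UCK2. LETM1, an ion exchanger of the inner mitochondrial membrane, and SLC8B1, the mitochondrial sodium-calcium exchanger, were called in neither culture, with -0.41 ± 0.20 and 0.03 ± 0.20 in adherent cells and 0.08 ± 0.06 and 0.13 ± 0.11 in spheres.

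VAPA and VAPB are ER membrane proteins that hold the ER to other organelles, and RMDN3 (PTPIP51) is their partner on mitochondria. VAPA was at 377, 337 and 312 CPM in adherent shCtrl and 455, 450.4 and 512 CPM in adherent shSigma cells, and at 384, 435 and 411 CPM and 349, 326 and 346 CPM in the same arms of spheres. The groups were apart in both cultures and in opposite order. VAPA rose by 0.40 ± 0.09 in adherent cells (edgeR adjusted p = 0.0089) and fell by 0.27 ± 0.06 in spheres (edgeR adjusted p = 0.0015), and the interaction was -0.73 ± 0.11 (edgeR adjusted p = 0.00029). VAPB was at 119, 118 and 116 CPM and 127, 126 and 141 CPM in adherent shCtrl and shSigma cells, and at 137, 138 and 148 CPM and 121, 118 and 127 CPM in spheres. It fell by 0.21 ± 0.05 in shSigma spheres (edgeR adjusted p = 0.0057) and differed by 0.09 ± 0.06 in adherent cells (edgeR adjusted p = 0.23), with an interaction of -0.36 ± 0.09 (edgeR adjusted p = 0.0068). RMDN3 rose by 0.26 ± 0.09 in adherent shSigma cells (edgeR adjusted p = 0.047, a call kept in 4 of 13 alternatives) and differed by 0.10 ± 0.07 in spheres (edgeR adjusted p = 0.24).

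CALM2 and CALM3 encode the same protein, calmodulin, which senses cytosolic calcium and regulates many of these channels. In shSigma spheres CALM2 fell by 0.28 ± 0.07 (edgeR adjusted p = 0.0042) and CALM3 fell by 0.23 ± 0.05 (edgeR adjusted p = 0.0016), with all shSigma libraries below the shCtrl libraries. In adherent cells the differences were 0.09 ± 0.13 (edgeR adjusted p = 0.58) and -0.14 ± 0.08 (edgeR adjusted p = 0.17).

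The difference between the knockdown effects of the cultures was called for 9 of the 26 genes. It was higher in spheres for 2 (ITPR1 and ITPR2), against 12.7% of all 14175 genes tested, and lower for 7 (RYR1, ATP2A2, ORAI2, ORAI3, TMCO1, VAPA and VAPB), against 15.6%. Only ITPR2 and RYR1 were over 1 on the log2 scale (2 of 26, against 8.54%). For ATP2A2, ORAI3 and TMCO1 the adherent difference was positive and the sphere difference was not called, and for RYR1 the sphere difference was the larger.

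Spheres were also compared with adherent cells within each arm. The adherent and sphere cultures differ in medium and attachment together, which cannot be told apart. In shCtrl cells 13 of the 26 genes were higher in spheres and 3 were lower, against 27.4% and 26.3% of all 13800 genes tested, and 3 were over 1 on the log2 scale (15.8% of all genes). The higher ones included all 4 tested genes of store-operated entry, 3 of 4 pumps and all 3 tethers, and the lower ones were ITPR1, ITPR2 and VDAC1. In shSigma cells 6 were higher and 5 were lower, against 21.9% and 25.2% of all 13622 genes tested, and ATP2A3 alone was over 1 (9.32% of all genes). The count of 13 fell to 7 without sphere shCtrl library 3, and that of 6 ranged from 3 to 10 over the libraries left out.

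Among single genes, ATP2A3 was 2.13 ± 0.40 higher in shCtrl spheres (edgeR adjusted p = 0.0042) and 1.47 ± 0.30 higher in shSigma spheres (edgeR adjusted p = 0.010), with no overlap in either arm. STIM1 was 0.74 ± 0.07 higher in shCtrl spheres (edgeR adjusted p = 6.6e-05) and 0.60 ± 0.05 higher in shSigma spheres (edgeR adjusted p = 9.9e-05). It was at 60.4 to 67.4 CPM in adherent and 104 to 111 CPM in sphere shCtrl libraries. In spheres VDAC1 fell by 0.40 ± 0.08 in shCtrl (edgeR adjusted p = 0.0045) and fell by 0.35 ± 0.06 in shSigma (edgeR adjusted p = 0.0027). RMDN3 was higher in spheres by 0.53 ± 0.08 (edgeR adjusted p = 0.0012) and 0.33 ± 0.08 (edgeR adjusted p = 0.010). VAPA was higher in shCtrl spheres by 0.26 ± 0.08 (edgeR adjusted p = 0.033), a call kept in 5 of 13 alternatives with values from 0.14 (without adherent shCtrl library 3) to 0.55 (nearest 40 genes subtracted), and fell by 0.45 ± 0.05 in shSigma spheres (edgeR adjusted p = 0.00039). MCUB, VDAC2 and CALM3 were lower and LETM1 and SLC8B1 were higher in shSigma spheres, by at most 0.44 on the log2 scale and with calls kept in 6 to 9 of 13 alternatives.

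Levels of paralogs were set side by side as CPM per kilobase of exon (union of all exons, GENCODE 44), and each paralog's share of its family is given as the mean and SD of 3 libraries with no test. ITPR3 was the main IP3 receptor at 79.6% ± 4.50 of the family in adherent shCtrl and 93.8% ± 0.70 in sphere shCtrl cells. ITPR2 made up 12.9% ± 2.95 and 8.43% ± 1.82 in adherent shCtrl and shSigma cells, 2.24% ± 0.25 in shCtrl spheres and 8.95% ± 0.16 in shSigma spheres. The 3 receptors thus stood in a similar ratio in both shSigma groups. ITPR1 has long untranslated and alternative exons, and its share in adherent shCtrl cells was 7.47% ± 1.55 by the union of exons and 20.4% ± 3.56 by the longest transcript.

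Of the plasma membrane pumps, ATP2B4 made up 59.2% ± 1.28 of the pair with ATP2B1 in adherent shCtrl, 79.6% ± 0.38 in adherent shSigma, 65.3% ± 3.74 in sphere shCtrl and 79.7% ± 0.54 in sphere shSigma cells. ORAI2 made up 30.05% ± 3.72 of the ORAI genes in adherent shCtrl and 43.8% ± 4.46 in adherent shSigma cells, and 34.4% ± 0.39 and 49.9% ± 1.41 in spheres, with nearly all of the rest from ORAI3 as the table lists ORAI1. STIM2 made up 51.3% ± 2.24 and 56.4% ± 0.96 of the STIM pair in adherent cells and 43.4% ± 2.75 and 49.6% ± 1.86 in spheres. By the longest transcript the STIM2 shares were 40.8% and 45.8% in adherent cells and 33.4% and 39.1% in spheres. Which of the pair was larger in adherent cells thus depended on the length used. ATP2B4, ORAI2 and STIM2 thus had larger shares in shSigma than in shCtrl in both cultures, while the shares of ORAI3 and STIM1, which were also higher in adherent shSigma cells, were smaller there. The pair of ATP2A2 and ATP2A3 came almost wholly from ATP2A2, with ATP2A3 at 1.51% ± 0.83 in adherent shCtrl and 4.78% ± 0.85 in sphere shCtrl cells. The third SERCA gene, ATP2A1, was not part of this share. MCUB was at 35.8% ± 1.48 of MCU and MCUB together in adherent shCtrl and at 30.2% ± 1.05 in sphere shSigma cells.

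Neighbouring genes on a chromosome moved together in places, so each difference was set beside the median of the 40 nearest tested genes. For RYR1, ATP2B4 and STIM2 these medians lay between -0.17 and 0.04 in both cultures, and for ITPR2 they were -0.13 and -0.06. With the neighbours subtracted, RYR1 was at -3.31 and -4.83, ATP2B4 at 1.26 and 1.00, and ITPR2 in spheres at 2.26, all still called. In adherent cells ITPR1, TMCO1, STIM1 and VDAC3 lost their calls, at 0.02, 0.09, 0.0048 and -0.26, and in spheres MICU2 and VDAC1 did, at -0.10 and 0.07. Calls were gained by LETM1 (-0.65) and CALM3 (-0.30) in adherent cells and by ITPR1 (0.52), STIM1 (-0.15) and TMCO1 (-0.58) in spheres.

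**Figure D4:**
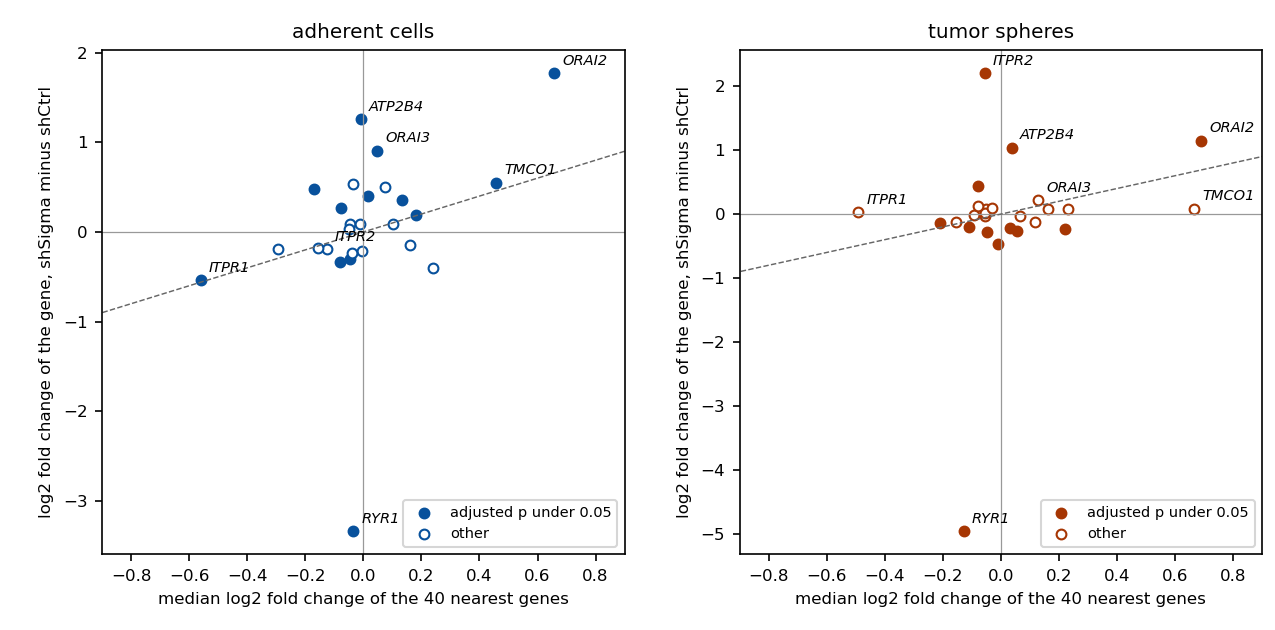
Each point is 1 of the 26 genes, with the median log2 fold change of its 40 nearest tested genes on the horizontal axis and its own log2 fold change (shSigma minus shCtrl) on the vertical axis, in adherent cells (left) and tumor spheres (right), and the dashed line marks equality. ITPR1 and TMCO1 lie close to the line in adherent cells and away from it in spheres, and RYR1, ATP2B4 and sphere ITPR2 lie far from it.

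A wider list of 74 genes of the same pathway was counted in the same comparisons. In adherent cells 15 of 71 tested were higher and 19 were lower in shSigma, and in spheres 35 of 70 were higher and 24 were lower, where 22.3% of all genes tested were higher and 27.7% lower in adherent cells and 30.2% and 30.9% in spheres. Among the 11 genes that make or break down IP3, 4 were higher and 1 was lower in adherent cells, and 8 were higher and 0 were lower in spheres. PLCD3, a phospholipase C that produces IP3, rose by 1.93 ± 0.34 (edgeR adjusted p = 0.0044) in adherent cells and 1.62 ± 0.09 (edgeR adjusted p = 2.7e-08) in spheres. Among 9 regulators of IP3 receptors, 1 rose and 1 fell in adherent cells and 4 rose and 4 fell in spheres. BCL2L1, whose product Bcl-xL binds these receptors, rose by 0.87 ± 0.11 (edgeR adjusted p = 0.00048) and 1.18 ± 0.06 (edgeR adjusted p = 1.1e-08). AHCYL1 (IRBIT), which competes with IP3 at the receptor, fell by 0.73 ± 0.05 in spheres (edgeR adjusted p = 2.0e-07) and differed by 0.12 ± 0.07 in adherent cells (edgeR adjusted p = 0.19), with a median of -0.50 for its neighbours in spheres. ERP44, an ER protein that binds ITPR1, fell by 0.18 ± 0.05 in spheres (edgeR adjusted p = 0.013).

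HSPA9 (GRP75), the chaperone that links IP3 receptors to VDAC1, fell by 1.29 ± 0.10 (edgeR adjusted p = 4.8e-05) in adherent and fell by 0.84 ± 0.06 (edgeR adjusted p = 1.5e-07) in sphere shSigma cells. It was 1 of 16 tether and lipid transfer genes, of which 3 rose and 7 fell in adherent cells and 8 rose and 6 fell in spheres (all genes 22.3% and 27.7% in adherent cells, 30.2% and 30.9% in spheres). Among 6 uniporter regulators, SLC25A23 rose in both cultures, while 2 genes fell in adherent cells and 3 fell in spheres. MICU3, a relative of MICU2, fell by 0.57 ± 0.10 (edgeR adjusted p = 0.0019) and fell by 0.45 ± 0.10 (edgeR adjusted p = 0.0020). MCUR1, a uniporter assembly factor, fell by 0.33 ± 0.07 in adherent cells (edgeR adjusted p = 0.0074), a call kept in 8 of 13 alternatives. Among 4 regulators of store-operated entry, 0 rose and 1 fell in adherent cells, and 1 (CRACR2B) rose and 3 fell in spheres. CRACR2A, which binds ORAI and STIM proteins, fell by 1.14 ± 0.11 (edgeR adjusted p = 0.00016) and fell by 0.86 ± 0.15 (edgeR adjusted p = 0.00034). SARAF, which turns STIM1 off, fell by 0.30 ± 0.05 in spheres (edgeR adjusted p = 0.00020). ATP2C2, a calcium pump of the secretory pathway, fell by 2.38 ± 0.17 in shSigma spheres (edgeR adjusted p = 3.4e-07) and differed by 0.55 ± 0.31 in adherent cells (edgeR adjusted p = 0.20).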

How the data were processed

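Single-end reads of 75 nt came from directional libraries made with 800 ng of total RNA, and the authors deposited raw counts per gene, not normalized. Per the submitters' processing notes the aligner was STAR 2.6.1c and the build GRCh38.p12. The annotation, the use of strand and the handling of reads with several alignments are not given in the sources used here. Sample labels gave the group and replicate number. The paper's methods describe the 3 libraries of a group as independent biological replicates.

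edgeR 4.0.16 in R 4.3.3 was run on the deposited counts (CPM, log2 fold change and test: TMM, filterByExpr at a minimum count of 10, robust quasi-likelihood test, two-sided, prior count 0.125). Each contrast was fitted on its own 6 libraries and the interaction, tumor spheres minus adherent cells, on all 12, so it is not the exact difference of the 2 contrasts. SE is the log2 fold change divided by the square root of F. Coordinates and exon lengths are from GENCODE 44. The procedure was tested on simulated data. Alternatives were DESeq2 1.42.0, its size factors, 1 fit of all 12 libraries, the absence of a count filter or a stricter filter of 10 counts in each library, the replicate block, subtraction of the 40 nearest genes, longest transcripts for the family shares, and each library left out. Values in every library are given for the genes called in both cultures or by the interaction, for those past a log2 fold change of 1 and for untested ones. Of the wider list, the 2 largest differences in each knockdown contrast and genes whose products act on one of the 29 were named. The 29 genes, the wider list and the tests were chosen with earlier results of these data known. The level of the hairpin's target gene is not reported here. Depth ranged from 16472722 to 26957777 counts, and the floors in CPM cover counting error only. The SE also takes in the spread between replicate libraries.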

Additional observations from a re-analysis of the deposited data

Results flagged for a closer look

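The knockdown difference (shSigma minus shCtrl) differed between tumor spheres and adherent cells by the interaction test (edgeR, adjusted p under 0.05) for the following genes, given as the log2 difference of spheres minus adherent cells. Values were positive for ITPR2 (2.34) and ITPR1 (0.50). They were negative for RYR1 (-1.68), ORAI3 (-0.74), VAPA (-0.73), ORAI2 (-0.67), TMCO1 (-0.53), ATP2A2 (-0.44) and VAPB (-0.36). In the wider list they were negative for the secretory pathway pump gene ATP2C2 (-2.99), the IP3 receptor regulator AHCYL1 (-0.91) and the calmodulin-dependent kinase genes CAMK2D (-0.60) and CAMK2G (-0.26), of which CAMK2G was called under 0 of 18 alternatives (lowest adjusted p by edgeR or DESeq2 0.055). They were positive for the ER chaperone gene HSPA5 (0.48) and the tether chaperone gene HSPA9 (0.39), the latter called under 11 of 18 alternatives. ORAI2 was called under 7 of 18.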

How the results depend on the processing

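Of the alternatives for single genes among the 26, 296 of 338 for the adherent contrast, 318 of 338 for spheres and 450 of 468 for the interaction gave the same call (higher, lower or not called), and in 5, 15 and 19 of these a value that was not called changed sign. RYR1, ATP2B4, STIM2 and ORAI2 were called under every alternative in both cultures, as was ITPR2 in spheres. In adherent cells the count of genes lower in shSigma was 4, and it was 2 with DESeq2. Over the libraries left out it ranged from 2 (without shSigma library 1 or 2, or shCtrl library 2) to 6 (without shCtrl library 3). The replicate numbers were not used as pairs in the main fits. Of 12 same-numbered pairs, 3 had deviations correlated above 0.1, which cannot decide whether samples were paired, since single libraries that stand apart dominate these deviations. The replicate block gave 2 lower genes in adherent cells. In spheres the count of lower genes was 8, and 5 in 1 fit of all 12 libraries. For spheres against adherent cells, the higher genes in shCtrl ranged from 7 (without sphere shCtrl library 3) to 13 over the libraries left out. In shSigma cells the higher genes ranged from 3 (without sphere library 2 or 3, or adherent library 1) to 10 (without adherent library 3), and the lower genes from 2 (without sphere library 2 or 3) to 6, with 3 by DESeq2. With the 40 nearest genes subtracted, 4 knockdown values that were called with or without the subtraction changed sign: ITPR1 in adherent cells (0.022, edgeR adjusted p = 0.822) and, in spheres, STIM1 (-0.15, 0.039), VDAC1 (0.072, 0.276) and TMCO1 (-0.58, 2.23e-05). Sign changes of values called in neither case numbered 2 in adherent cells and 4 in spheres. The sphere against adherent value of CALR also changed sign, to -0.20 in shCtrl and -0.13 in shSigma. The cause was not tested. Genes under 3 counts cannot be compared at this depth.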

Other observations

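The genes of this paragraph were chosen after their values were seen. Among 8 effectors of calcium and calmodulin, 3 rose and 1 fell in adherent shSigma cells and 4 rose and 1 fell in shSigma spheres. Of all genes tested, 22.3% were higher and 27.7% lower in adherent cells and 30.2% and 30.9% in spheres. CAMK2D, a calmodulin-dependent kinase, rose by 0.78 ± 0.08 (edgeR adjusted p = 0.00016) in adherent cells and by 0.24 ± 0.06 (edgeR adjusted p = 0.0030) in spheres. CAMK2G, a related kinase, rose by 0.56 ± 0.06 (edgeR adjusted p = 0.00022) and 0.37 ± 0.06 (edgeR adjusted p = 0.00015). PPP3CA, the catalytic subunit of the phosphatase calcineurin, rose by 0.59 ± 0.07 (edgeR adjusted p = 0.00046) and 0.49 ± 0.07 (edgeR adjusted p = 6.4e-05). Among 9 calcium-binding proteins of the ER lumen, 2 rose and 4 fell in adherent cells and 7 rose and 2 fell in spheres. CALR, the calcium buffer calreticulin, rose by 0.29 ± 0.06 (edgeR adjusted p = 0.0074) and 0.31 ± 0.05 (edgeR adjusted p = 0.00035). RCN2, an ER protein with calcium-binding EF hands, fell by 0.70 ± 0.08 (edgeR adjusted p = 0.00036) and 0.64 ± 0.06 (edgeR adjusted p = 3.2e-06). HSPA5, the main chaperone of the ER lumen, fell by 0.27 ± 0.07 in adherent shSigma cells (edgeR adjusted p = 0.017), a call kept in 6 of 13 alternatives with values from -0.32 to -0.17 and lost with the replicate block or without shSigma library 1 or 2 or shCtrl library 1 or 2, and rose by 0.27 ± 0.05 in shSigma spheres (edgeR adjusted p = 0.00084).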
